A study of Mus musculus with 16 samples.

Results

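Cytokines, chemokines and their receptors were followed in enterochromaffin (EC) cells, endocrine cells of the gut lining that make serotonin, and in the other epithelial cells around them. The 142 genes are those of the 20072 in the deposited table whose symbol starts as a chemokine or chemokine receptor (Ccl, Ccr, Cxcl, Cxcr, Cx3c), an interleukin or its receptor (Il), a TNF superfamily member (Tnfsf, Tnfrsf), an interferon receptor (Ifngr, Ifnar, Ifnlr), TGF-beta or its receptor (Tgfb, Tgfbr), or Tslp. Of these, 53 reached a mean of 5 or more in at least 1 group, 36 had their highest group mean between 1 and 5, and 53 stayed under 1 in all 4 groups. The name rule also took in Il4i1, which encodes an enzyme.

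All mice carried the Tph1-CFP genotype, were untreated and were 8 to 16 weeks old. Cyan fluorescent protein (CFP) in cells that express Tph1, the serotonin synthesis enzyme, was the basis of the sort. Crypt and villus fractions of the small intestine each gave CFP-positive EC cells and CFP-negative epithelial cells (epi), so the epi groups are mixtures of every other epithelial type. The 4 groups (EC of the crypt, epi of the crypt and the same pair from the villus) had 4 libraries each, made from 5000 pooled cells per library. The sources used here do not tie library numbers to mice, so p-values measure the spread between these libraries, part of which may be technical. Values are FPKM (fragments per kilobase of a transcript, relative to the size of the library). They are levels per length, and the depth behind them is unknown.

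Chemokines are small secreted proteins that draw leukocytes carrying the matching G protein-coupled receptor. In the gut, Ccl25 and Ccl28 recruit Ccr9- and Ccr10-bearing lymphocytes and plasma cells, and Ccl20 recruits cells with Ccr6. Interleukins and interferons mostly signal through paired receptor chains to JAK kinases and STAT factors or, for the IL-1, IL-18 and IL-17 families, through adaptors to NF-kappaB. TNF superfamily ligands act on receptors that feed NF-kappaB or cell death, and several receptors of that family also exist as decoys. Epithelial cells are known both to release such signals and to respond to them: IL-22 and IL-17 induce antimicrobial genes there, and interferons induce antiviral genes.

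The sort was visible in its markers. The summed level of 10 EC markers ran from 88040.2 to 110357 in crypt EC and from 85126 to 125041 in villus EC, against 1435 to 1976 in crypt epi and 623 to 752 in villus epi. The 10 Paneth cell markers summed to 207420.0 to 249131 in crypt epi, to 6844 to 10011 in crypt EC and to 73.6 to 127 in villus EC and 291 to 598 in villus epi. Enterocyte markers (10) summed to 100668 to 148567 in villus epi and 3146 to 9347 in crypt epi. Of 14 T cell and intraepithelial lymphocyte markers with a row, 4 (Cd3e, Cd3g, Gzmb and Trdc) were under 1 in every library, and the sum reached at most 10.5 outside villus epi. Of 12 myeloid markers, 6 were under 1 in every library, among them Csf1r and Adgre1. Others were present, such as Lyz2 (1.84 to 56.4 over all libraries) and Cd14 (2.14 to 45.05). The 12 summed to 45.1 to 76.5 in crypt epi and 52.8 to 86.8 in villus epi. In EC they summed to 10.4 to 45.9 in the crypt and 6.72 to 26.4 in the villus. The neutrophil markers S100a8 and S100a9 stood at 6.65 to 19.4 in epi and 0.524 to 9.21 in EC. The source of this RNA was not tested.

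Villus epi replicate 2 stood apart from its group. Its mean correlation with the other villus epi libraries was 0.812, while the correlations among those 3 ran from 0.977 to 0.989. Stroma markers summed to 138 in it and to 4.09 to 6.66 in the others, but 130 of this was Dcn alone. Endothelium markers summed to 40.1 against 9.34 to 11.1, of which Pecam1 was 23.1, and T cell markers to 35.7 against 6.42 to 24.1, of which Ptprc was 24.6, while Cd3e stood at 0.663 and Gzmb at 0. Epithelium markers summed to 5010.3 against 9660.2 to 12604. Of the 53 genes that reached 5, 17 differed by more than 1.2 log2 units from the mean of the other 3 libraries, 4 higher and 13 lower. Where the call of a difference printed below turns on this library, the value without it is given too. All groups share 1 estimate of the spread, so leaving this library out can change calls of contrasts that do not use it, at unchanged fold changes. Without it, 52 genes reached 5, Tnfsfm13 now among them (4.53 with it, 5.68 without).

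**Figure D1:**
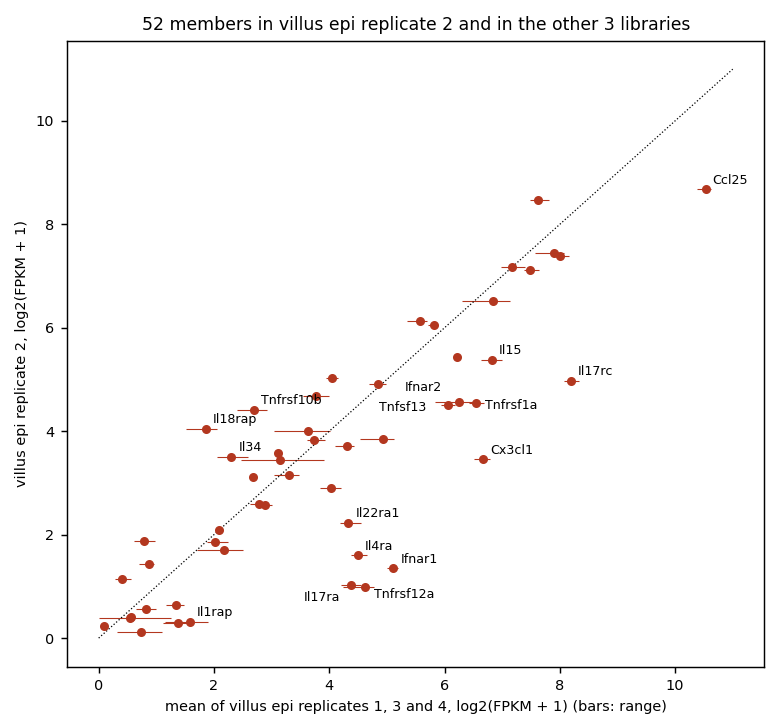
Level of 52 genes that reached 5 in villus epi replicate 2 (vertical axis) against the mean of the other 3 villus epi libraries (horizontal axis), both as log2(FPKM + 1). Points off the diagonal include Tnfrsf10b, at 20.3 FPKM in this library against 4.26 to 6.53 in the others, and Ifnar1, at 1.54 against 31.0 to 35.5.

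Promoter sequences were read for genes whose levels carried the main contrasts. RefSeq windows of 300 bases (250 before and 50 after a start site, build GRCm38.p6, the same as mm10) were matched by symbol for 108 of the 142 genes and for 42 of the 53 that reached 5, which had 54 windows. Both strands were searched for a kappaB motif (GGG and TTCC with any 3 bases between, bound by NF-kappaB), an interferon-stimulated response element (ISRE, GAAA and GAAA with any 2 bases between) and a STAT site (GAS, TTC and GAA with any 3 bases between). The kappaB motif was in 6 of the 54 windows and in 5.56% of the 32851 windows searched, the ISRE in 4 and in 3.44%, and the GAS motif in 7 and in 8.3%. A match here is a match of letters and was not tested as a binding site. Each motif occurred in genes of differing direction. KappaB was also in Il22ra1, higher in crypt EC, ISRE in Il1rap, higher in villus EC, and GAS in Tnfrsf1a, lower in villus EC. The 4 windows or parts of them are shown, 5′ to 3′ on the strand of the gene, with the motif in capitals. They belong to a pair of chemokines low in EC cells (Ccl20 and Ccl9, whose kappaB motif reads on the opposite strand, 80 to 71 and 35 to 26 bases before the start), to Tnfsf13b, a ligand high in villus epi (ISRE, 16 to 7 bases before), and to Il18r1, a receptor chain high in EC cells (GAS, 152 to 144 bases before 1 of its 3 starts, with the stretch shown ending 37 bases before that start).
Ccl20 chr1:83116516-83116765 (+ strand): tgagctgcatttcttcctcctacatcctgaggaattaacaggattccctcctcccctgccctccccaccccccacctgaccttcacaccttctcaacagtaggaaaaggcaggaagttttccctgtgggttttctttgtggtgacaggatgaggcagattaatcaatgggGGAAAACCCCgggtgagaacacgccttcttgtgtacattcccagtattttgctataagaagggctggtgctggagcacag
Ccl9 chr11:83578637-83578886 (- strand): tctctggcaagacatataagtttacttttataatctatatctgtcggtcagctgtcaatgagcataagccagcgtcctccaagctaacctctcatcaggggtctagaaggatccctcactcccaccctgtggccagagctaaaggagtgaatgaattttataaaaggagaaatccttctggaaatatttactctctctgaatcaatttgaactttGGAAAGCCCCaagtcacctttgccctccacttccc
Tnfsf13b chr8:10006603-10006632 (+ strand): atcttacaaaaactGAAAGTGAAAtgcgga
Il18r1 chr1:40465811-40465969 (+ strand): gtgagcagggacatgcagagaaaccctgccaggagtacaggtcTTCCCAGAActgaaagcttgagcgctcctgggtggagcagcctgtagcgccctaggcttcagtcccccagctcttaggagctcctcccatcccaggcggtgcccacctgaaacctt

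Differences were tested with limma on log2(FPKM + 1), in 1 fit over the 14089 genes that were at 1 or higher in 4 libraries or more, and a gene was called at a Benjamini-Hochberg adjusted p below 0.05. The filter kept all 53 genes that reached 5 and 25 of the 89 that did not, so 78 were tested and 64 were not. Group means are given ± SD of 4 libraries and log2 fold changes ± SE, and a fold change on this scale understates the change of low genes. Members with a low level could pass the filter only through a group in which they were high, so the counts over the 78 are descriptions. The same holds for p-values of genes that passed the filter only through groups in which they were high, such as Ccl24, Il33, Il34 and Tnfrsf11b.

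In the crypt, 20 of the 78 were higher in EC than in epi and 21 lower, where 23.2% of all tested genes were higher and 20.0% lower (43.2% in either direction). In the villus, 23 were higher in EC and 33 lower, where 40.6% of all tested genes were higher and 21.6% lower (62.2% in either). The median log2 fold change of the 78 was -0.01 in the crypt and -0.39 in the villus, against 0.05 and 0.33 over all tested genes. From crypt to villus, 12 genes rose and 11 fell in EC (10.3% and 16.2% of all tested genes, 26.5% in either direction), and 25 rose and 14 fell in epi (19.6% and 35.4%, 55.0% in either). The interaction, which is the villus difference between EC and epi minus the crypt difference, was called above 0 for 14 and below 0 for 25 (26.9% and 16.0% of all, 42.9% in either). These splits depended on how libraries were scaled. With all libraries set to a common total, the median of all genes moved by 0.50 log2 units between crypt EC and crypt epi and by 0.54 between the villus groups, and the counts higher and lower became 30 and 14 in the crypt and 27 and 26 in the villus. The same scaling gave 8 rises and 18 falls from crypt to villus in EC, and 15 rises and 20 falls in epi. Scaling by median ratios moved the medians by at most 0.25 and gave 17 and 25 in the crypt and 23 and 34 in the villus.

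**Figure D2:**
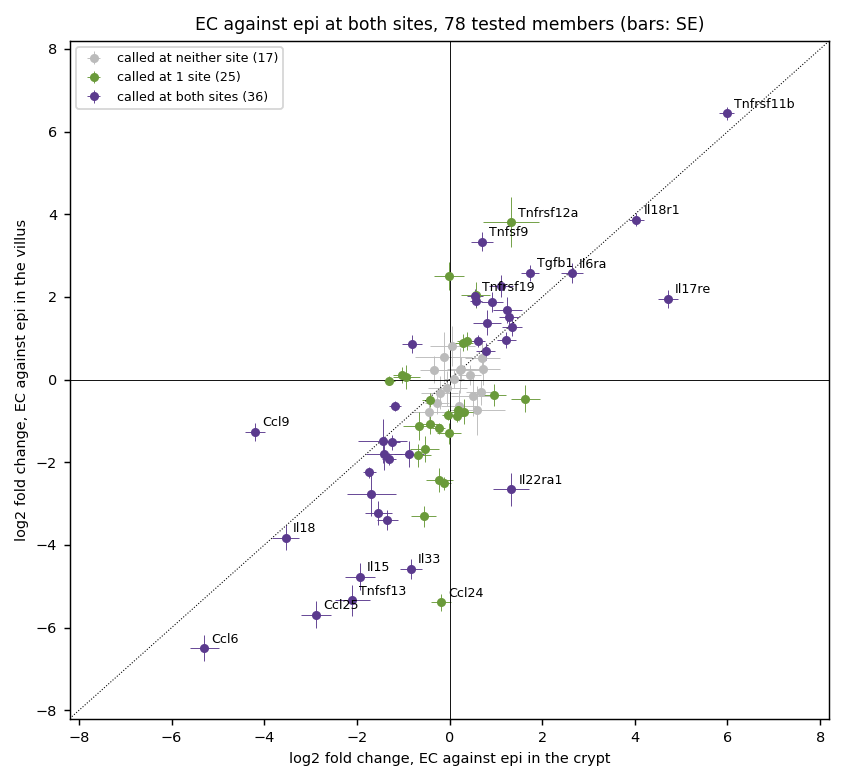
Log2 fold change of EC over epi in the crypt (horizontal axis) and in the villus (vertical axis) for the 78 tested genes, with bars for the standard error. Of these, 36 were called at both sites, 25 at 1 site and 17 at neither, and Tnfrsf11b, Il18r1 and Il6ra lie at the upper right while Ccl6, Ccl25 and Il18 lie at the lower left.

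By direction, 17 of the 78 genes were higher in EC at both sites and 17 lower at both, where 17.5% and 10.7% of all tested genes were. Il22ra1 and Tnfrsf1b were called in opposite directions, as were 5.07% of all. The genes higher in EC at both sites included 11 receptors or receptor chains: Tnfrsf11b, Tnfrsf18, Tnfrsf19, Il17re, Il18r1, Il6ra, Tgfbr1, and, below a mean of 5, Il1r1, Il3ra, Tgfbr3 and Cxcr4. The ligands among them were Tgfb1, Tnfsf9, Il36g, Tnfsf15, Il4 and Il27, whose crypt call ended when 1 of 11 libraries was left out. The genes lower in EC at both sites included 5 chemokines (Ccl6, Ccl9, Ccl20, Ccl25 and Cx3cl1), 3 interleukins (Il15, Il18 and Il33) and both chains of the interferon-gamma receptor (Ifngr1 and Ifngr2). The contrasts at the crypt and at the villus share no libraries but share 1 estimate of the spread from all 16, so their calls are not independent. Of the 53 genes that reached 5, 29 had their highest mean in villus epi, 12 in villus EC, 6 in crypt EC and 6 in crypt epi. These means are unscaled, and library totals were highest in villus epi (1190722 to 1415123) and lowest in crypt EC (731415 to 766491). The same count over all genes was not made.

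**Figure D3:**
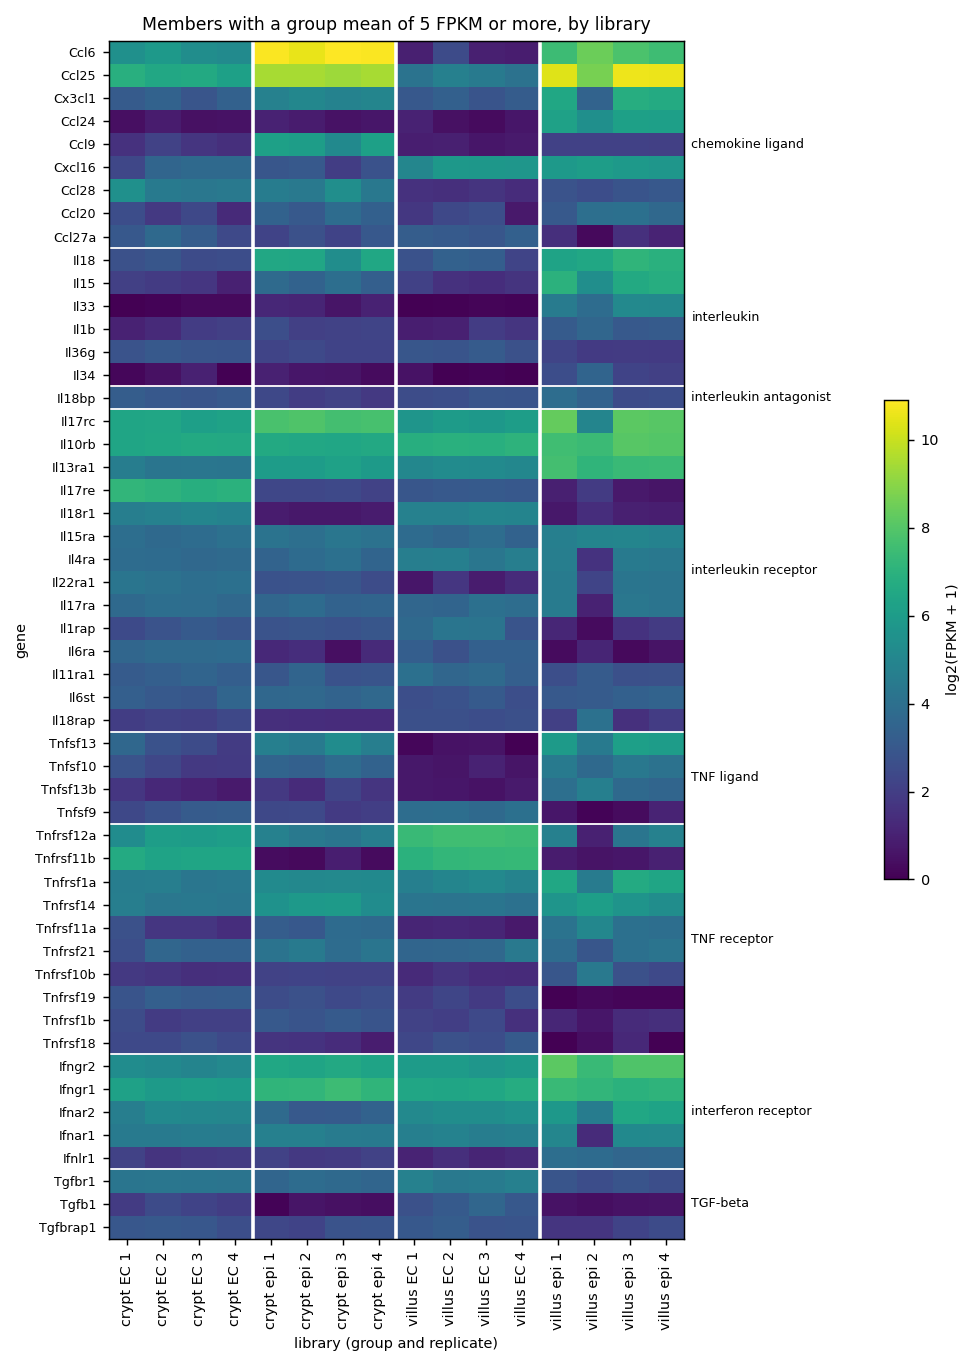
Level of 52 genes that reached 5 (rows, grouped by role) in each of the 16 libraries (columns, in 4 blocks by group), as log2(FPKM + 1). Colours run from dark for low levels to bright for high levels. Ccl6 and Ccl25 are the brightest rows in the crypt epi columns and Tnfrsf12a and Tnfrsf11b in the villus EC columns. Villus epi replicate 2 departs from its neighbours in several rows.

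Chemokine ligands made up 25 of the 142 genes, and 9 reached 5. Of the 11 tested, 0 were higher in crypt EC than in crypt epi and 6 lower (23.2% and 20.0% of all tested genes). In villus EC 1 was higher than in its epi and 7 lower (40.6% and 21.6% of all). The median log2 fold change was -1.30 at each site. In libraries of pooled cells, fewer cells of a type and less RNA per cell cannot be told apart.

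Ccl6 (chr11:83587882-83593087, mm10), a myeloid cell attractant, was the most abundant of all 142 genes. It stood at 1836, 1509, 1925 and 1816 in the crypt epi libraries and at 43, 58.7, 40.1 and 36.6 in crypt EC. Its villus values were 178, 356, 224 and 183 in epi and 0.957, 4.61, 0.948 and 0.848 in EC. Every epi library lay above every EC library at both sites, and within each cell type every crypt library lay above every villus library. The log2 fold change of EC over epi was -5.30 ± 0.31 (adjusted p = 2.4e-09) in the crypt and -6.50 ± 0.31 (adjusted p = 1.02e-10) in the villus. Ccl6 fell from crypt to villus in EC (-4.16 ± 0.31, adjusted p = 1.41e-07) and in epi (-2.96 ± 0.31, adjusted p = 9.86e-07). Its interaction was small (-1.20 ± 0.44, adjusted p = 0.0399) and its direction turned with the pseudocount, at 0.06 (adjusted p = 0.887) with 5 added in place of 1. That call also ended when 1 library was left out, crypt EC replicate 1, 2 or 3, any crypt epi library, villus EC replicate 1, 3 or 4 or villus epi replicate 3 (-1.25 to -1.06, adjusted p of 0.0527 to 0.0831).

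Ccl9 (chr11:83572919-83578636), the neighbouring chemokine gene, stood at 73.6, 67.1, 34.9 and 71.7 in crypt epi and at 1.95, 3.41, 2.25 and 1.79 in crypt EC. At the villus its values were 3.36, 3.28, 3.26 and 3.16 in epi and 0.875, 0.939, 0.582 and 0.74 in EC. It was high in crypt epi only, where replicate 3 was lowest, and the EC libraries lay under the epi libraries at both sites. The difference was -4.19 ± 0.22 (adjusted p = 5.51e-10) in the crypt and -1.26 ± 0.22 (adjusted p = 0.000123) in the villus, and the fall from crypt to villus in epi was -3.82 ± 0.22 (adjusted p = 1.12e-09). The fall in EC was -0.89 ± 0.22 (adjusted p = 0.00667), and it missed the threshold with a pseudocount of 5 (-0.34, adjusted p = 0.16). The promoter windows of Ccl6 and Ccl9 aligned over 74 columns with 59 identical (79.7%). Ccl6 and Ccl9 were highest in crypt epi, the group in which the Paneth marker sum was also highest, and the part of Paneth cells or their RNA in these levels was not tested.

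Ccl25 (chr8:4325210-4360020), which calls Ccr9-bearing lymphocytes to the small intestine, stood at 717, 708, 639 and 712 in crypt epi and 1327, 409, 1579 and 1520.2 in villus epi. It stood at 117, 91.8, 96.7 and 71.8 in crypt EC and 16.9, 26.1, 21.2 and 16.3 in villus EC. No EC library overlapped an epi library of its site, and villus epi replicate 2 was the lowest of its group. EC was lower in the crypt (-2.88 ± 0.33, adjusted p = 4.05e-06) and further below epi in the villus (-5.68 ± 0.33, adjusted p = 8.11e-10), with an interaction of -2.80 ± 0.47 (adjusted p = 0.000202). Ccl25 fell from crypt to villus in EC (-2.18 ± 0.33, adjusted p = 0.00015). In epi the difference was 0.62 ± 0.33 (adjusted p = 0.127), and without villus epi replicate 2 it was 1.08 (adjusted p = 1.77e-05). Exons of Ccl25 share 204 bases with Elavl1 on the other strand.

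Ccl24, an attractant of eosinophils (eotaxin-2), was detected at a high level in 1 group. Its values were 75.7, 42.3, 72.5 and 70.9 in villus epi, with replicate 2 lowest. They were 1.04, 0.394, 0.256 and 0.581 in villus EC, 1.07, 0.782, 0.446 and 0.589 in crypt epi and 0.365, 0.801, 0.417 and 0.457 in crypt EC. The rise from crypt to villus in epi was 5.25 ± 0.21 (adjusted p = 3.14e-11), the villus difference between EC and epi was -5.39 ± 0.21 (adjusted p = 1.07e-11), and the interaction, -5.21 ± 0.30 (adjusted p = 1.01e-08), was the largest in size of the 53 genes. In the crypt EC and epi overlapped (-0.18 ± 0.21, adjusted p = 0.518). Ccl24 passed the filter through villus epi only, so its p-values for contrasts with that group are descriptions.

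Cx3cl1 (fractalkine, a membrane-bound chemokine for Cx3cr1-bearing phagocytes) stood at 26.7, 32, 27.5 and 29.8 in crypt epi and at 7.78, 9.83, 6.36 and 9.55 in crypt EC. Villus levels were 90.3, 10.02, 109 and 102 in epi and 6.95, 9.14, 6.19 and 8.02 in EC. EC lay under epi at both sites without overlap (-1.69 ± 0.53, adjusted p = 0.0174 in the crypt and -2.77 ± 0.53, adjusted p = 0.000301 in the villus), although villus epi replicate 2 came within 1 unit of the highest villus EC library. The crypt call was lost with a common total (-1.19, adjusted p = 0.0541). The rise from crypt to villus in epi was not called (0.96 ± 0.53, adjusted p = 0.141), and without villus epi replicate 2 it was 1.76 (adjusted p = 2.85e-08). The interaction moved from -1.08 to -1.88 (adjusted p = 9.06e-07).

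Ccl20, the ligand of Ccr6, stood at 9.63, 7.36, 13.5 and 9.18 in crypt epi and 5.02, 2.49, 4.1 and 1.44 in crypt EC. In the villus libraries it stood at 7.28, 15, 15.2 and 11.7 in epi and 2.43, 4.21, 5.24 and 0.70 in EC. The levels were low, but the EC libraries lay below the epi libraries at both sites (-1.41 ± 0.39, adjusted p = 0.0075 and -1.79 ± 0.39, adjusted p = 0.000813). Neither contrast of crypt and villus was called (-0.12 ± 0.39, adjusted p = 0.892 in EC and 0.26 ± 0.39, adjusted p = 0.586 in epi). The crypt call was lost with a common total (-0.98, adjusted p = 0.0525).

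Ccl28, which attracts IgA plasma cells, followed the site more than the cell type. It stood at 43.3, 21.7, 19 and 20.4 in crypt EC and 22.6, 20.4, 41 and 19.8 in crypt epi, against 1.91, 1.74, 2.08 and 1.59 in villus EC and 5.95, 4.96, 6.09 and 7.0 in villus epi. Every crypt library exceeded every villus library. The fall was -3.18 ± 0.26 (adjusted p = 2.83e-07) in EC and -1.89 ± 0.26 (adjusted p = 1.44e-05) in epi. EC and epi overlapped in the crypt (-0.01 ± 0.26, adjusted p = 0.981), and EC was lower in the villus (-1.30 ± 0.26, adjusted p = 0.000408). The interaction of -1.29 ± 0.36 (adjusted p = 0.0098) missed the threshold with a pseudocount of 5 (-0.68, adjusted p = 0.0863).

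Cxcl16, a transmembrane chemokine for Cxcr6-bearing lymphocytes, followed the site in the other direction. It stood at 31.4, 54.7, 53.3 and 51.5 in villus EC and 58.1, 65.5, 57.2 and 51.6 in villus epi. In the crypt it stood at 3.98, 10.6, 12.4 and 12.2 in EC and 6.49, 7.17, 2.94 and 5.68 in epi. Every villus library lay above every crypt library, and the rise was 2.24 ± 0.31 (adjusted p = 5.49e-05) in EC and 3.22 ± 0.31 (adjusted p = 3.03e-07) in epi. EC and epi overlapped at both sites (0.67 ± 0.31, adjusted p = 0.094 in the crypt and -0.31 ± 0.31, adjusted p = 0.401 in the villus), and the crypt difference was called with a common total (1.15, adjusted p = 0.00465). Cxcl16 shares 552 exon bases with Zmynd15 on the opposite strand, and whether counting used strand is not given in the sources used here.

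Ccl27a, which in skin attracts Ccr10-bearing T cells, was the 1 chemokine higher in villus EC. Its values were 8.42, 7.62, 6.46 and 9.24 in villus EC and 1.77, 0.226, 1.89 and 1.16 in villus epi (2.05 ± 0.31, adjusted p = 3.38e-05). In the crypt EC stood at 7.13, 12.4, 8.12 and 4.23 and epi at 3.55, 5.62, 3.53 and 7.05, which overlapped (0.56 ± 0.31, adjusted p = 0.167). From crypt to villus it fell in epi (-1.43 ± 0.31, adjusted p = 0.00112), and the interaction was 1.49 ± 0.44 (adjusted p = 0.013). Ccl27a has near-identical copies in the mouse genome, so its level is uncertain.

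**Figure D4:**
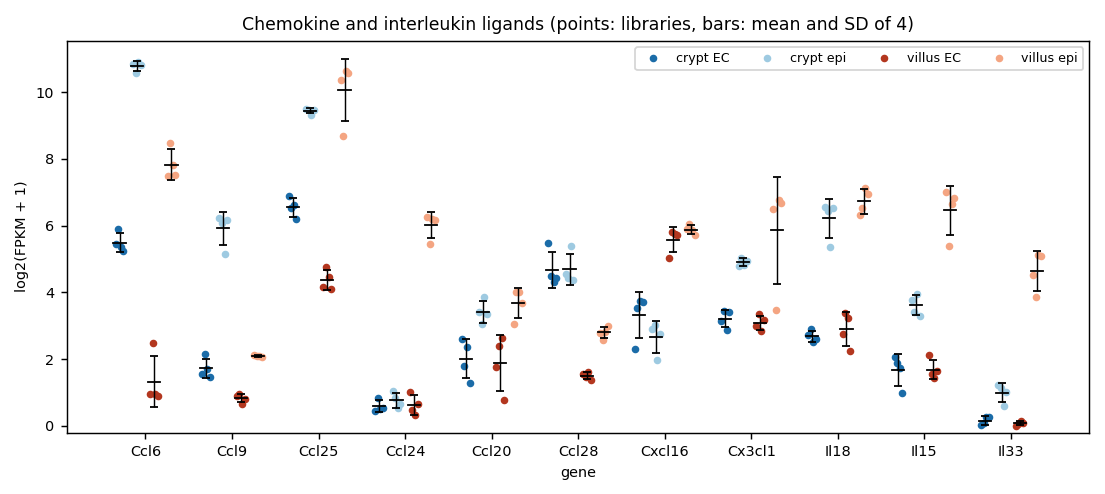
Level of 8 chemokines and 3 interleukins as log2(FPKM + 1) on the vertical axis, by gene and group, with points for libraries and bars for the mean and SD of 4 libraries on that scale. Ccl6, Ccl25 and Il18 lie lower in both EC groups than in the epi groups, Ccl28 is lower and Cxcl16 higher at the villus in both cell types, and Ccl24 is high in villus epi.

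Chemokine receptors counted 14 genes. Ccr9, the receptor of Ccl25, had means of 1.72 ± 0.175 in crypt EC and 1.44 ± 0.245 in crypt epi, then 1.61 ± 0.205 in villus EC and 3.82 ± 0.431 in villus epi. It was lower in EC than in epi at the villus (-0.89 ± 0.13, adjusted p = 2.06e-05). Cxcr4 was higher in EC at both sites (0.78 ± 0.20, adjusted p = 0.00583 in the crypt and 0.69 ± 0.20, adjusted p = 0.00855 in the villus) at means of 1.18 ± 0.332 in crypt EC and 0.267 ± 0.143 in crypt epi, then 1.05 ± 0.259 in villus EC and 0.323 ± 0.495 in villus epi. Cxcr2 rose from crypt to villus in epi (1.02 ± 0.38, adjusted p = 0.0322), and the value without villus epi replicate 2 was 0.46 (adjusted p = 0.00843). That call ended when a crypt library was left out, any crypt epi library (1.00 to 1.03, adjusted p of 0.0558 to 0.0632).

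Of 20 interleukin genes 6 reached 5, and 11 were tested. In the crypt 3 were higher and 3 lower in EC (23.2% and 20.0% of all tested genes), and in the villus 3 were higher and 5 lower (40.6% and 21.6%). From crypt to villus 1 rose in EC (10.3% of all), and 5 rose and 0 fell in epi (19.6% and 35.4% of all).

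Il18, released by epithelial cells as an inflammasome product, stood at 93.5, 85.8, 39.9 and 90.8 in crypt epi and 78.4, 90.4, 139 and 122 in villus epi. It stood at 5.6, 6.48, 4.67 and 5.06 in crypt EC and 5.74, 9.34, 8.48 and 3.74 in villus EC. All 8 epi libraries lay above all 8 EC libraries (-3.54 ± 0.29, adjusted p = 1.05e-07 in the crypt and -3.82 ± 0.29, adjusted p = 1.71e-08 in the villus). Crypt and villus overlapped in both cell types (0.22 ± 0.29, adjusted p = 0.676 in EC and 0.50 ± 0.29, adjusted p = 0.16 in epi).

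Il15, which sustains intraepithelial lymphocytes, stood at 127, 40.7, 98.3 and 112 in villus epi and 12.8, 9.7, 14.5 and 8.85 in crypt epi. In EC it stood at 3.21, 2.72, 2.35 and 0.995 in the crypt and 3.33, 1.95, 1.7 and 2.13 in the villus. EC lay below epi without overlap at both sites (-1.94 ± 0.33, adjusted p = 0.000171 and -4.77 ± 0.33, adjusted p = 4.58e-09). Il15 rose from crypt to villus in epi (2.84 ± 0.33, adjusted p = 2.27e-06), and in EC the sites overlapped (0.01 ± 0.33, adjusted p = 0.988), and the interaction was -2.83 ± 0.46 (adjusted p = 0.000153). Its private receptor chain Il15ra was closer to even: 24.9, 29.3, 30.7 and 27.5 in villus epi, 13, 11, 14 and 9.73 in villus EC, 16.9, 14.8, 18.2 and 16.4 in crypt epi and 14.2, 12.2, 13.6 and 15.9 in crypt EC. It was lower in EC at the villus (-1.18 ± 0.14, adjusted p = 2.04e-06), rose from crypt to villus in epi (0.73 ± 0.14, adjusted p = 0.000328) and overlapped between EC and epi in the crypt (-0.23 ± 0.14, adjusted p = 0.189). The interaction was -0.94 ± 0.19 (adjusted p = 0.0011).

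Il33, a nuclear alarmin that acts on type 2 lymphoid cells, stood at 22.2, 13.4, 33.7 and 33.2 in villus epi. It stood at 1.35, 1.18, 0.52 and 1.04 in crypt epi, 0.0139, 0.0611, 0.203 and 0.201 in crypt EC and 0, 0.0359, 0.10 and 0.0707 in villus EC. Villus epi was far above the other groups (3.65 ± 0.24, adjusted p = 4.3e-09 over crypt epi), and the villus difference between EC and epi was -4.58 ± 0.24 (adjusted p = 2.14e-10). The interaction was -3.74 ± 0.34 (adjusted p = 5.41e-07). As Il33 passed the filter through villus epi only, p-values for contrasts with that group are descriptions. The small crypt difference (-0.84 ± 0.24, adjusted p = 0.00946) missed the threshold with a pseudocount of 5 (-0.23, adjusted p = 0.301). Il25, another type 2 cytokine of the gut epithelium, was not analysed here, and Tslp had group means of 0.0288 ± 0.0376 in crypt EC and 0.162 ± 0.105 in crypt epi, then 0.133 ± 0.167 in villus EC and 0.151 ± 0.189 in villus epi and was not tested.

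Il1b stood at 7.79, 11, 7.28 and 7.85 in villus epi, 5.24, 3.19, 3.47 and 3.78 in crypt epi, 1.09, 1.45, 2.86 and 3.25 in crypt EC and 0.91, 1.0, 2.83 and 2.25 in villus EC. Villus epi lay above villus EC (-1.83 ± 0.27, adjusted p = 2.67e-05) and above crypt epi (0.95 ± 0.27, adjusted p = 0.00813), without overlap. EC and epi overlapped in the crypt (-0.68 ± 0.27, adjusted p = 0.0556), a difference called without villus epi replicate 2 (-0.68, adjusted p = 0.0295). The interaction was -1.15 ± 0.39 (adjusted p = 0.025), and it was lost when 1 of 5 libraries was left out, crypt EC replicate 3 or 4, crypt epi replicate 2 or villus EC replicate 1 or 2 (-1.08 to -0.99, adjusted p of 0.0507 to 0.0566). Il1b is chiefly a myeloid cytokine. Of the myeloid markers, Csf1r and Adgre1 stayed under 1, while Lyz2 stood at 28.6 to 56.4 in villus epi and 2.13 to 20.7 in villus EC. The myeloid markers summed to 52.8 to 86.8 in villus epi and 6.72 to 26.4 in villus EC. The neutrophil markers S100a8 and S100a9 stood at 9.24 to 19.4 in villus epi and 0.801 to 7.99 in villus EC. At both sites they were higher in EC replicates 3 and 4 than in 1 and 2, as Il1b was. The part of all these markers in this result was not tested.

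Il34, a ligand of the Csf1 receptor, stood at 5.0, 10.4, 3.58 and 3.16 in villus epi, highest in replicate 2, and from 0 to 1.00 in all other libraries. The values were 0.149, 0.403, 1.0 and 0.0218 in crypt EC, 0.995, 0.578, 0.534 and 0.265 in crypt epi and 0.431, 0, 0.0904 and 0 in villus EC. It was lower in EC than in epi at the villus (-2.43 ± 0.29, adjusted p = 2.68e-06), rose from crypt to villus in epi (1.93 ± 0.29, adjusted p = 3.68e-05) and had an interaction of -2.20 ± 0.41 (adjusted p = 0.00048). Its mean of 5.53 is just inside the threshold, and without villus epi replicate 2 it was 3.91. Il34 passed the filter through villus epi only, so these p-values are descriptions.

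Il36g, an IL-1 family cytokine of barrier epithelia, was higher in EC at both sites (0.62 ± 0.15, adjusted p = 0.00268 in the crypt and 0.93 ± 0.15, adjusted p = 4.62e-05 in the villus). Its group means were 6.4 ± 0.578 in crypt EC and 3.82 ± 0.371 in crypt epi, then 6.49 ± 1.02 in villus EC and 2.94 ± 0.519 in villus epi. Its difference was small against that of Il18, and no library of EC overlapped one of epi at the same site.

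Of the 2 interleukin antagonists, Il18bp, the secreted binding protein that neutralises IL-18, reached 5. It stood at 8.38, 6.96, 6.42 and 7.21 in crypt EC and 4.1, 2.91, 3.42 and 2.55 in crypt epi, and at 4.85, 5.13, 6.39 and 6.13 in villus EC and 14, 9.86, 4.56 and 4.98 in villus epi. Crypt EC lay above crypt epi (0.96 ± 0.26, adjusted p = 0.00768), whereas the villus groups overlapped (-0.38 ± 0.26, adjusted p = 0.228), with an interaction of -1.34 ± 0.37 (adjusted p = 0.00889). It rose from crypt to villus in epi (1.03 ± 0.26, adjusted p = 0.00381). Il1rn, the IL-1 receptor antagonist, had group means of 0.942 ± 0.329 in crypt EC and 1.47 ± 0.604 in crypt epi, then 1.22 ± 0.955 in villus EC and 0.877 ± 0.88 in villus epi and was not called in any contrast. Without villus epi replicate 2 its difference from crypt to villus in epi went from -0.46 ± 0.32 (adjusted p = 0.238) to -0.75 (adjusted p = 0.028).

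Interleukin receptors were the largest class, with 39 genes, 14 of them at 5 or more. Of 19 tested, 6 were higher in crypt EC and 2 lower (23.2% and 20.0% of all tested genes). In villus EC 7 were higher and 8 lower (40.6% and 21.6% of all). The receptors higher in EC included the IL-18 receptor alpha chain, the IL-17C receptor chain and the IL-6 receptor.

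Il18r1 (chr1:40465552-40500854), the ligand-binding chain for IL-18, stood at 24.1, 26.5, 29.8 and 27.5 in crypt EC and 26.9, 26.9, 30.2 and 29.6 in villus EC. It stood at 0.779, 0.612, 0.641 and 0.787 in crypt epi and 0.628, 1.69, 0.947 and 0.903 in villus epi. Every EC library was far above every epi library (4.03 ± 0.15, adjusted p = 2.01e-11 in the crypt and 3.87 ± 0.15, adjusted p = 1.31e-11 in the villus). Crypt and villus overlapped in both cell types (0.07 ± 0.15, adjusted p = 0.81 in EC and 0.24 ± 0.15, adjusted p = 0.209 in epi). The order was the reverse of that of its ligand Il18, which all 8 epi libraries held at a higher level than all 8 EC libraries. The accessory chain Il18rap, on the same chromosome, had group means of 3.42 ± 0.566 in crypt EC and 1.68 ± 0.0847 in crypt epi, then 5.28 ± 0.205 in villus EC and 5.85 ± 6.5 in villus epi. It was not called between EC and epi (0.71 ± 0.38, adjusted p = 0.151 in the crypt and 0.26 ± 0.38, adjusted p = 0.572 in the villus). Without villus epi replicate 2, which stood at 15.6 against 1.84 to 3.16, it was higher in EC at both sites, with values of 0.71 (adjusted p = 0.000241) and 0.82 (adjusted p = 9.38e-05). Its rise from crypt to villus in epi was 0.97 ± 0.38 (adjusted p = 0.043) with that library and 0.41 (adjusted p = 0.0187) without it. That call ended when a crypt or a villus EC library was left out, any crypt EC library, any crypt epi library or any villus EC library (0.95 to 0.99, adjusted p of 0.051 to 0.0786).

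Il17re (chr6:113458484-113470758), the chain that binds IL-17C, stood at 143, 131, 113 and 126 in crypt EC and 6.53, 7.22, 7.5 and 7.11 in villus EC. In epi it stood at 3.96, 4.03, 4.28 and 3.5 in the crypt and 0.97, 2.69, 0.676 and 0.535 in the villus. Crypt EC was above every other group, and EC lay above epi at each site. The difference was 4.71 ± 0.22 (adjusted p = 1.47e-10) in the crypt and 1.96 ± 0.22 (adjusted p = 1.15e-06) in the villus, with an interaction of -2.75 ± 0.31 (adjusted p = 4.46e-06). Il17re fell from crypt to villus (-4.00 ± 0.22, adjusted p = 3.38e-09 in EC and -1.25 ± 0.22, adjusted p = 0.000154 in epi).

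Il17rc (chr6:113471427-113483140), the chain for IL-17A and IL-17F, lies beside Il17re and had the opposite order. It stood at 85.2, 85.7, 69.7 and 76.6 in crypt EC and 221, 235, 200.3 and 214 in crypt epi. The villus values were 51.3, 63.2, 55.1 and 66.7 in EC and 321, 30.5, 286 and 268 in epi, where replicate 2 was lower than every EC library. EC was lower (-1.45 ± 0.52, adjusted p = 0.0356 in the crypt and -1.48 ± 0.52, adjusted p = 0.0222 in the villus), and the villus value without that replicate was -2.29 (adjusted p = 1.95e-11). Both calls were near the threshold and ended when 1 other library was left out: in the crypt, any crypt EC library or any crypt epi library (-1.49 to -1.39, adjusted p of 0.0582 to 0.0778), and in the villus, villus EC replicate 1 or villus epi replicate 1, 3 or 4 (-1.42 to -1.17, adjusted p of 0.0505 to 0.0761). With a common total neither was called (-0.91, adjusted p = 0.127, and -0.85, adjusted p = 0.13). The shared chain Il17ra had group means of 13.1 ± 1.25 in crypt EC and 11.1 ± 1.55 in crypt epi, then 12.6 ± 2.22 in villus EC and 15.1 ± 9.58 in villus epi and was not called. Without villus epi replicate 2 (1.04 against 17.4 to 22.5 in the others) it was -0.61 (adjusted p = 0.00111) for EC over epi in the villus, 0.78 (adjusted p = 0.000151) for villus over crypt in epi and -0.84 (adjusted p = 0.00148) for the interaction. Il17rb, the chain for IL-25, had means of 1.67 ± 0.923 in crypt EC and 2.55 ± 0.636 in crypt epi, then 0.621 ± 0.26 in villus EC and 2.21 ± 1.93 in villus epi and was not called. Without that library (0.149 against 1.37 to 4.67 in the others) Il17rb was lower in villus EC, from -0.77 ± 0.37 (adjusted p = 0.086) to -1.19 (adjusted p = 0.00131), and fell from crypt to villus in EC, from -0.68 ± 0.37 (adjusted p = 0.22) to -0.68 (adjusted p = 0.044).

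Il6ra, the ligand-binding IL-6 receptor, stood at 11.2, 12.6, 12.8 and 13.1 in crypt EC and 8.5, 5.58, 9.2 and 9.2 in villus EC. It stood at 1.37, 1.69, 0.362 and 1.47 in crypt epi and 0.263, 1.21, 0.224 and 0.478 in villus epi. EC exceeded epi without overlap (2.64 ± 0.24, adjusted p = 3.01e-07 in the crypt and 2.58 ± 0.24, adjusted p = 1.59e-07 in the villus). The signalling chain Il6st (gp130) was more even, with group means of 8.39 ± 1.97 in crypt EC and 11.4 ± 0.838 in crypt epi, then 5.87 ± 1.11 in villus EC and 8.61 ± 1.29 in villus epi. Its villus difference of -0.49 ± 0.17 (adjusted p = 0.0221) turned to 0.07 (adjusted p = 0.735) with a common total and ended when 1 of 3 libraries was left out, villus EC replicate 1 or 4 or villus epi replicate 4 (-0.44 to -0.41, adjusted p of 0.0614 to 0.0666). Il11ra1, which also pairs with gp130 and has near-identical copies, had means of 8.92 ± 1.15 in crypt EC and 7.19 ± 2.09 in crypt epi, then 12 ± 2.85 in villus EC and 5.94 ± 1.15 in villus epi and was higher in villus EC (0.90 ± 0.20, adjusted p = 0.00116).

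Il22ra1, the epithelial chain of the IL-22 receptor, changed its order between the sites. It stood at 17.7, 16.2, 14.2 and 15.5 in crypt EC and 5.65, 5.94, 6.57 and 4.74 in crypt epi. At the villus it stood at 0.568, 2.34, 0.773 and 1.55 in EC and 22.3, 3.71, 17.7 and 17.2 in epi. Every crypt EC library lay above every crypt epi library and every villus EC library below every villus epi library. The difference was 1.33 ± 0.39 (adjusted p = 0.0119) in the crypt and -2.66 ± 0.39 (adjusted p = 2.46e-05) in the villus, and the interaction was -3.99 ± 0.55 (adjusted p = 3.67e-05). It fell in EC from crypt to villus (-2.93 ± 0.39, adjusted p = 4.35e-05). The rise in epi (1.05 ± 0.39, adjusted p = 0.0328) was lost with a common total (0.77, adjusted p = 0.0848) and when 1 of 6 libraries was left out, crypt epi replicate 1, 2 or 4 or villus epi replicate 1, 3 or 4 (0.81 to 1.07, adjusted p of 0.0562 to 0.105).

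Il10rb, the shared chain of the IL-10, IL-22 and interferon-lambda receptors, stood at 83.2, 90.2, 97.4 and 93.9 in crypt EC and 96.7, 92.6, 86.3 and 96.4 in crypt epi. Its villus values were 113, 121, 118 and 131 in EC and 189.6, 174, 269 and 254 in epi. The crypt groups overlapped (-0.03 ± 0.13, adjusted p = 0.884), and with a common total crypt EC was called higher (0.51, adjusted p = 0.00117). In the villus EC was lower without overlap (-0.85 ± 0.13, adjusted p = 3.74e-05), a call that was lost with a common total (-0.22, adjusted p = 0.0929). It rose from crypt to villus in epi (1.22 ± 0.13, adjusted p = 1.08e-06). In EC the rise of 0.40 ± 0.13 (adjusted p = 0.0337) ended when 1 of 6 libraries was left out, crypt EC replicate 1, 2 or 4 or villus EC replicate 2, 3 or 4 (0.36 to 0.41, adjusted p of 0.058 to 0.0985). The interaction was -0.82 ± 0.18 (adjusted p = 0.00214). Il10rb shares 569 exon bases, and its neighbour Ifnar2 shares 315, with the read-through gene Gm21970, so their values are uncertain to that extent.

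Il13ra1, the chain that binds IL-13 and completes the type II IL-4 receptor, stood at 23.5, 17.7, 18.5 and 17.9 in crypt EC and 64.8, 64.6, 74.6 and 61.3 in crypt epi. Villus levels were 32.3, 37.9, 36.7 and 32 in EC and 199, 138, 166 and 171 in epi. EC was below epi at both sites (-1.73 ± 0.13, adjusted p = 3.94e-08 and -2.24 ± 0.13, adjusted p = 8.35e-10). It rose from crypt to villus in both cell types (0.81 ± 0.13, adjusted p = 0.00025 in EC and 1.32 ± 0.13, adjusted p = 4.69e-07 in epi). The interaction of -0.51 ± 0.19 (adjusted p = 0.0369) was lost when 1 of 10 libraries was left out, crypt EC replicate 1 or 3, crypt epi replicate 1, 2 or 4, villus EC replicate 1 or 4 or villus epi replicate 1, 3 or 4 (-0.53 to -0.42, adjusted p of 0.0502 to 0.0755). Il4ra, its partner chain, had group means of 12.7 ± 0.646 in crypt EC and 12.3 ± 2.55 in crypt epi, then 23.2 ± 3.17 in villus EC and 16.6 ± 9.92 in villus epi and was not called. Villus epi replicate 2 stood at 2.04 against 19.7 to 24.2 in the others, and without it the rise from crypt to villus was 0.81 (adjusted p = 0.000139) in EC and 0.77 (adjusted p = 0.000196) in epi.

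Il1rap, the accessory chain of the IL-1, IL-33 and IL-36 receptors, stood at 4.53, 5.99, 7.63 and 6.34 in crypt EC and 5.89, 6.32, 5.68 and 6.49 in crypt epi, which overlapped (-0.01 ± 0.33, adjusted p = 0.983). In the villus libraries it stood at 12.3, 17.7, 17.5 and 6.14 in EC and 1.22, 0.245, 2.02 and 2.72 in epi. The villus difference was 2.51 ± 0.33 (adjusted p = 7.84e-06) and the interaction 2.52 ± 0.47 (adjusted p = 0.000478). It fell from crypt to villus in epi (-1.59 ± 0.33, adjusted p = 0.000776). In EC the rise of 0.94 ± 0.33 (adjusted p = 0.0493) overlapped and ended when 1 of 13 libraries was left out, any crypt EC library, any crypt epi library, villus EC replicate 1, 2 or 3 or villus epi replicate 1 or 3 (0.78 to 1.03, adjusted p of 0.0526 to 0.149). The gene shares 552 exon bases with the antisense gene Gm20319. Il1r1, the IL-1 receptor itself, was below 5, at means of 1.77 ± 1.02 in crypt EC and 0.122 ± 0.0925 in crypt epi, then 3.54 ± 2.62 in villus EC and 0.288 ± 0.225 in villus epi, and was higher in EC at both sites (1.25 ± 0.31, adjusted p = 0.00416 and 1.68 ± 0.31, adjusted p = 0.000224).

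TNF superfamily ligands counted 10 genes, 4 of them at 5 or more. Of the 7 tested, 2 were higher in crypt EC and 3 lower (23.2% and 20.0% of all tested genes). In villus EC 2 were higher and 4 lower (40.6% and 21.6% of all).

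Tnfsf13 (APRIL, a survival factor of plasma cells) stood at 11.4, 5.63, 4.57 and 2.74 in crypt EC and 25, 21.6, 38.6 and 24.1 in crypt epi. The villus values were 0.133, 0.461, 0.473 and 0 in EC and 60.5, 21.7, 71.3 and 64.7 in epi, lowest in replicate 2. EC lay below epi without overlap (-2.10 ± 0.38, adjusted p = 0.000342 in the crypt and -5.34 ± 0.38, adjusted p = 7.53e-09 in the villus). From crypt to villus it fell in EC (-2.37 ± 0.38, adjusted p = 0.000248), and the interaction was -3.24 ± 0.54 (adjusted p = 0.000188). In epi the difference was 0.88 ± 0.38 (adjusted p = 0.0642), and without replicate 2 it was 1.26 (adjusted p = 0.00182). Tnfsf13 and Tnfsf12 (TWEAK) both overlap the read-through gene Tnfsfm13, which shares 983 and 731 exon bases with them, so a split of reads between the 3 genes is uncertain.

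Tnfsf13b (BAFF, a B cell survival factor) stood at 15, 24.8, 12.3 and 10.6 in villus epi. It stood at 2.48, 1.52, 3.66 and 2.23 in crypt epi, 2.34, 1.39, 1.05 and 0.705 in crypt EC and 0.634, 0.586, 0.458 and 0.751 in villus EC. Villus epi lay above the other 3 groups (2.23 ± 0.26, adjusted p = 3.01e-06 over crypt epi), and EC was below it (-3.31 ± 0.26, adjusted p = 2.55e-08). The interaction was -2.75 ± 0.37 (adjusted p = 2.81e-05), and the crypt groups overlapped (-0.56 ± 0.26, adjusted p = 0.0996), a difference called without villus epi replicate 2 (-0.56, adjusted p = 0.0291).

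Tnfsf10 (TRAIL, a death receptor ligand) stood at 6.02, 4.06, 2.53 and 2.61 in crypt EC and 10.5, 9.25, 13.7 and 9.8 in crypt epi. At the villus it stood at 0.613, 0.545, 1.09 and 0.548 in EC and 20.6, 12.2, 19.4 and 16.1 in epi. The EC libraries were below epi at both sites (-1.34 ± 0.23, adjusted p = 0.000225 and -3.40 ± 0.23, adjusted p = 4.77e-09). It fell from crypt to villus in EC (-1.45 ± 0.23, adjusted p = 0.000235), and the interaction was -2.05 ± 0.33 (adjusted p = 0.000136). The rise in epi was 0.60 ± 0.23 (adjusted p = 0.0394) and ended when 1 of 6 libraries was left out, crypt epi replicate 1, 2 or 4 or villus epi replicate 1, 3 or 4 (0.51 to 0.62, adjusted p of 0.0574 to 0.102). Its receptor Tnfrsf10b (DR5) stood at 6.53, 20.3, 5.53 and 4.26 in villus epi and 1.49, 2.1, 1.64 and 1.51 in villus EC. In the crypt it stood at 3.49, 3.56, 3.39 and 3.46 in epi and 2.52, 2.21, 1.79 and 1.9 in EC. EC was lower at the villus (-1.69 ± 0.31, adjusted p = 0.000221). The rise in epi was 0.94 ± 0.31 (adjusted p = 0.0181), and 0.51 (adjusted p = 0.00511) without villus epi replicate 2. The interaction was -1.15 ± 0.44 (adjusted p = 0.0465), and -0.72 (adjusted p = 0.00483) without that library. It ended when 1 of 13 others was left out, any crypt EC library, any crypt epi library, any villus EC library or villus epi replicate 1 (-1.23 to -1.09, adjusted p of 0.0504 to 0.0816).

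Tnfsf9 (4-1BB ligand, a costimulator of T cells) was the TNF ligand at 5 or more that was higher in EC. It stood at 13.7, 14.2, 12.2 and 15.3 in villus EC and 0.585, 0.0880, 0.252 and 1.14 in villus epi. In the crypt it stood at 4.21, 5.77, 7.78 and 8.18 in EC and 4.23, 4.3, 2.6 and 3.07 in epi, where the groups overlapped. The villus difference was 3.33 ± 0.23 (adjusted p = 5.72e-09), and the interaction was 2.63 ± 0.33 (adjusted p = 1.32e-05). Between crypt and villus it rose in EC (1.02 ± 0.23, adjusted p = 0.00394) and fell in epi (-1.61 ± 0.23, adjusted p = 2.48e-05). The crypt difference of 0.70 ± 0.23 (adjusted p = 0.0231) ended when 1 of 4 libraries was left out, crypt EC replicate 3 or 4 or crypt epi replicate 3 or 4 (0.59 to 0.65, adjusted p of 0.0601 to 0.0788). The rise in EC was lost with a pseudocount of 0.1 (1.12, adjusted p = 0.0887). Tnfsf15 (TL1A), under 5 at means of 2.52 ± 0.705 in crypt EC and 0.424 ± 0.108 in crypt epi, then 4.19 ± 0.705 in villus EC and 0.889 ± 0.649 in villus epi, was higher in EC at both sites (1.29 ± 0.21, adjusted p = 0.000153 and 1.51 ± 0.21, adjusted p = 1.66e-05).

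TNF receptors counted 18 genes, 10 of them at 5 or more. Of 12 tested, 3 were higher in crypt EC and 4 lower (23.2% and 20.0% of all tested genes). In villus EC 5 were higher and 5 lower (40.6% and 21.6% of all).

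Tnfrsf11b (chr15:54250619-54278484), osteoprotegerin, is a secreted decoy receptor for the ligand of RANK. It stood at 101, 79.9, 83.8 and 83.7 in crypt EC and 125, 148, 152 and 159.7 in villus EC. In epi it stood at 0.299, 0.205, 0.899 and 0.246 in the crypt and 0.764, 0.479, 0.558 and 0.992 in the villus. Every epi library was under 1, and no EC library was under 79.9. The difference was 5.98 ± 0.17 (adjusted p = 6.02e-13) in the crypt and 6.44 ± 0.17 (adjusted p = 2.83e-13) in the villus, the largest values above 0 among the 53 genes at each site. It was higher in villus EC than in crypt EC (0.74 ± 0.17, adjusted p = 0.0034), a call that was lost with a pseudocount of 0.1 (0.75, adjusted p = 0.11).

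Tnfrsf11a (RANK), the signalling receptor for the same ligand, had the opposite order. It stood at 5.46, 2.34, 2.3 and 1.73 in crypt EC and 8.26, 7.13, 12.9 and 12.3 in crypt epi. Its villus values were 1.17, 1.32, 1.19 and 0.681 in EC and 16.9, 31.7, 15.2 and 14.5 in epi. EC lay below epi without overlap (-1.54 ± 0.29, adjusted p = 0.000526 in the crypt and -3.23 ± 0.29, adjusted p = 1.23e-07 in the villus), and the interaction was -1.69 ± 0.42 (adjusted p = 0.004). The fall from crypt to villus in EC, -0.85 ± 0.29 (adjusted p = 0.0453), ended when 1 of 10 libraries was left out, crypt EC replicate 1, 2 or 3, crypt epi replicate 1 or 4, any villus EC library or villus epi replicate 1 (-0.91 to -0.58, adjusted p of 0.0518 to 0.16). The rise in epi, 0.85 ± 0.29 (adjusted p = 0.0235), ended when 1 of 3 was left out, crypt epi replicate 1 or 2 or villus epi replicate 2 (0.60 to 0.77, adjusted p of 0.0532 to 0.0764). Their ligand, Tnfsf11, was not analysed here.

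Tnfrsf12a (Fn14, the receptor of TWEAK) stood at 169, 188, 189 and 176 in villus EC and 38.2, 66, 61.8 and 67.6 in crypt EC. In epi it stood at 27.1, 20.5, 17.9 and 24.7 in the crypt and 26.2, 0.976, 17.9 and 26.5 in the villus, where replicate 2 was at 0.976. Every EC library lay above every epi library. The villus difference was 3.81 ± 0.60 (adjusted p = 5.14e-05). The crypt difference (1.32 ± 0.60, adjusted p = 0.094) and the rise in EC (1.65 ± 0.60, adjusted p = 0.0579) were not called with all libraries. Without villus epi replicate 2 both were called, at 1.32 (adjusted p = 9.86e-06) and 1.65 (adjusted p = 2.33e-06). The interaction was 2.49 ± 0.86 (adjusted p = 0.0282) with that library and 1.59 (adjusted p = 8.04e-05) without it. It ended when 1 of 2 others was left out, crypt EC replicate 1 or crypt epi replicate 1 (2.31 to 2.40, adjusted p of 0.0518 to 0.0568).

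Tnfrsf19 (TROY), a receptor linked to Wnt signalling and stem cells, followed the site as well as the cell type. It stood at 6.1, 8.85, 7.88 and 8.11 in crypt EC and 4.87, 5.52, 4.34 and 5.17 in crypt epi. Villus levels were 2.74, 3.82, 2.64 and 4.97 in EC and 0.0129, 0.174, 0.0995 and 0.103 in epi. Along the axis it fell (-0.96 ± 0.17, adjusted p = 0.000566 in EC and -2.44 ± 0.17, adjusted p = 9.82e-09 in epi). EC was higher in the villus (2.02 ± 0.17, adjusted p = 5.47e-08) and by less in the crypt (0.54 ± 0.17, adjusted p = 0.0181), with an interaction of 1.48 ± 0.24 (adjusted p = 0.000161). The crypt call ended when 1 of 2 libraries was left out, crypt EC replicate 2 or crypt epi replicate 3 (0.48 to 0.49, adjusted p of 0.0542 to 0.0588). Stem and transit cell markers (10) summed to 1055 to 1637 in crypt EC and 1849 to 2103 in crypt epi, against 45.7 to 53.8 in villus EC and 26.3 to 60.00 in villus epi, and their part in this result was not tested.

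Tnfrsf18 (GITR) stood at 4.24, 4.32, 5.53 and 4.33 in crypt EC and 2.13, 2.0, 1.58 and 0.845 in crypt epi. In the villus libraries it stood at 4.08, 5.5, 4.93 and 7.61 in EC and 0, 0.311, 1.38 and 0 in epi. EC was higher without overlap at both sites (1.11 ± 0.27, adjusted p = 0.00318 and 2.27 ± 0.27, adjusted p = 2.2e-06). It fell from crypt to villus in epi (-0.96 ± 0.27, adjusted p = 0.00645), where the groups overlapped, and the interaction was 1.16 ± 0.38 (adjusted p = 0.0215). The crypt call was lost with a pseudocount of 0.1 (1.50, adjusted p = 0.085). With a highest mean of 5.53 it is just inside the threshold, and 414 of its exon bases overlap the antisense gene Gm16008.

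TNF itself acts through Tnfrsf1a and Tnfrsf1b. Tnfrsf1a (TNFR1) stood at 23.4, 24.5, 18.2 and 19.6 in crypt EC and 35.8, 32.7, 33.8 and 34.9 in crypt epi. The villus values were 25.2, 30.1, 33.7 and 28.8 in EC and 90.8, 22.2, 102 and 85.1 in epi, where replicate 2 was below every EC library. EC was lower in the villus (-1.12 ± 0.34, adjusted p = 0.00999). The crypt difference was -0.66 ± 0.34 (adjusted p = 0.135), and -0.66 (adjusted p = 4.92e-05) without villus epi replicate 2. Without that library the villus difference was -1.62 (adjusted p = 2.95e-09) and the rise from crypt to villus in epi went from 0.90 ± 0.34 (adjusted p = 0.0363) to 1.40 (adjusted p = 2.16e-08). The rise ended when 1 of 7 other libraries was left out, any crypt epi library or villus epi replicate 1, 3 or 4 (0.69 to 0.92, adjusted p of 0.0597 to 0.113).

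Tnfrsf1b (TNFR2) stood at 4.72, 2.76, 3.15 and 3.17 in crypt EC and 7.34, 6.04, 7.4 and 6.16 in crypt epi. At the villus it stood at 3.46, 3.1, 4.33 and 1.87 in EC and 1.24, 0.566, 1.54 and 1.8 in epi. EC lay under epi in the crypt (-0.81 ± 0.22, adjusted p = 0.0072) and above it in the villus (0.87 ± 0.22, adjusted p = 0.00279), with an interaction of 1.68 ± 0.31 (adjusted p = 0.000446). Epi fell from crypt to villus (-1.79 ± 0.22, adjusted p = 4.81e-06), and in EC the sites overlapped (-0.10 ± 0.22, adjusted p = 0.815). The crypt call was lost with a common total (-0.37, adjusted p = 0.16).

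Tnfrsf14 (HVEM) stood at 24.8, 19.2, 19.8 and 18.5 in crypt EC and 45.6, 56.6, 60.3 and 38.2 in crypt epi. Its villus values were 17.9, 17.3, 17.8 and 15.9 in EC and 51, 69.1, 49.1 and 39.6 in epi. All EC libraries lay below all epi libraries (-1.23 ± 0.17, adjusted p = 3.25e-05 in the crypt and -1.52 ± 0.17, adjusted p = 1.71e-06 in the villus), and neither contrast of crypt and villus was called. Tnfrsf21 (DR6) had group means of 8.82 ± 2.6 in crypt EC and 17.4 ± 3.23 in crypt epi, then 13.5 ± 4.46 in villus EC and 13.2 ± 4.76 in villus epi. It was lower in crypt EC (-0.93 ± 0.29, adjusted p = 0.0172) and overlapped at the villus (0.07 ± 0.29, adjusted p = 0.859). The crypt call ended when 1 of 2 libraries was left out, crypt EC replicate 1 or crypt epi replicate 2 (-0.84 to -0.72, adjusted p of 0.0534 to 0.0625), and with a common total (-0.44, adjusted p = 0.178).

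**Figure D5:**
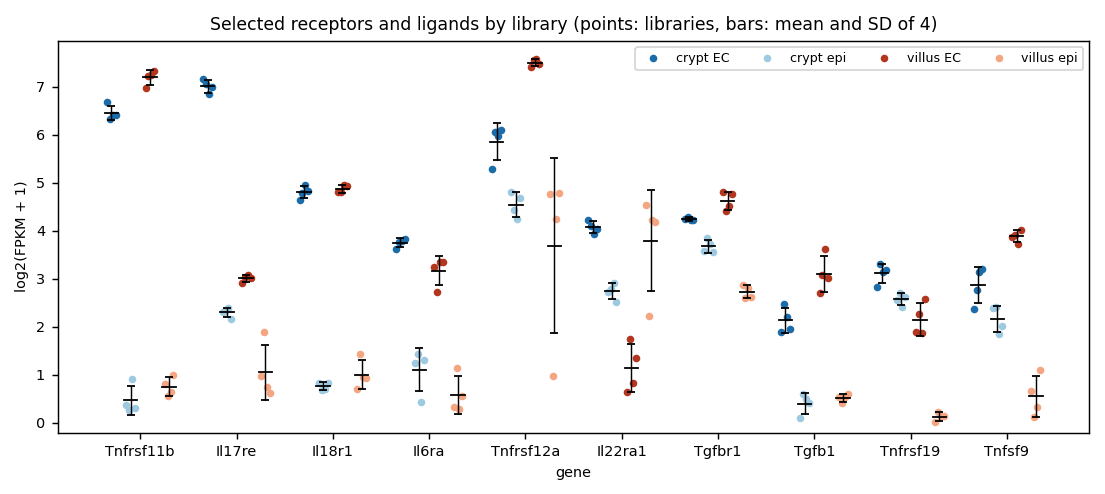
Level of 10 genes higher in EC at 1 or both sites as log2(FPKM + 1) on the vertical axis, by gene and group, with points for libraries and bars for the mean and SD of 4 libraries on that scale. Tnfrsf11b and Il18r1 separate EC from epi at both sites, Il17re is highest in crypt EC, and Tnfrsf12a, Tnfsf9 and Tgfb1 are highest in villus EC.

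All 5 interferon receptor genes reached 5. In the crypt 1 was higher and 2 lower in EC (23.2% and 20.0% of all tested genes), and in the villus 0 were higher and 3 lower (40.6% and 21.6%). From crypt to villus 3 rose in epi (19.6% of all).

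Both chains of the interferon-gamma receptor were lower in EC at both sites. Ifngr1, the binding chain, stood at 74.3, 60.7, 65.9 and 63 in crypt EC and 142, 146, 176 and 141 in crypt epi. Villus levels were 86.4, 83.7, 89.4 and 107 in EC and 167, 144, 125 and 135 in epi. EC was lower without overlap (-1.18 ± 0.12, adjusted p = 1.25e-06 in the crypt and -0.63 ± 0.12, adjusted p = 0.000325 in the villus), and with a common total the villus value was 0.00 in size (adjusted p = 0.997). It rose from crypt to villus in EC (0.47 ± 0.12, adjusted p = 0.00994), and the interaction was 0.55 ± 0.17 (adjusted p = 0.0183).

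Ifngr2, the signalling chain, stood at 38.3, 35.6, 29.7 and 34.2 in crypt EC and 88.8, 82.6, 94.7 and 79.6 in crypt epi. In the villus libraries it stood at 62.8, 63.4, 52.6 and 59.8 in EC and 285, 166, 239.8 and 242 in epi. EC was lower without overlap (-1.30 ± 0.15, adjusted p = 3.2e-06 and -1.92 ± 0.15, adjusted p = 1.64e-08). It rose from crypt to villus in EC (0.78 ± 0.15, adjusted p = 0.000952) and in epi (1.40 ± 0.15, adjusted p = 9.1e-07). The interaction, -0.62 ± 0.21 (adjusted p = 0.0252), ended when 1 of 3 libraries was left out, crypt EC replicate 1, crypt epi replicate 4 or villus EC replicate 3 (-0.58 to -0.56, adjusted p of 0.0507 to 0.055).

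Of the chains for type I interferons, Ifnar2 stood at 24.3, 35.1, 32.5 and 31.2 in crypt EC and 12.6, 7.39, 7.5 and 9.77 in crypt epi. The villus values were 34.1, 40.2, 39.8 and 45.4 in EC and 55.8, 22.8, 89.9 and 78.8 in epi, lowest in replicate 2. Crypt EC lay above crypt epi (1.64 ± 0.32, adjusted p = 0.00065), and the villus groups overlapped (-0.46 ± 0.32, adjusted p = 0.228), with an interaction of -2.10 ± 0.45 (adjusted p = 0.00159). Without villus epi replicate 2 EC was lower at the villus (-0.87, adjusted p = 0.000618). Ifnar2 rose from crypt to villus in epi (2.47 ± 0.32, adjusted p = 8.67e-06). Ifnar1 was even, with means of 21.7 ± 0.735 in crypt EC, 23.9 ± 2.62 in crypt epi and 25.3 ± 1.62 in villus EC, and it was not called in any contrast. Its villus epi libraries stood at 31, 1.54, 35.5 and 34.1, and without replicate 2 the villus difference was -0.39 (adjusted p = 0.00124).

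Ifnlr1, the private chain of the interferon-lambda receptor, stood at 14.2, 13.1, 11.2 and 11.4 in villus epi and 1.13, 1.74, 1.21 and 1.44 in villus EC. In the crypt it stood at 3.46, 2.54, 2.68 and 3.38 in epi and 3.42, 2.12, 2.5 and 2.68 in EC, which overlapped (-0.13 ± 0.16, adjusted p = 0.539). The villus difference was -2.50 ± 0.16 (adjusted p = 1.53e-09) and the interaction -2.37 ± 0.22 (adjusted p = 7.13e-07). Toward the villus it rose in epi (1.75 ± 0.16, adjusted p = 1.38e-07) and fell in EC (-0.62 ± 0.16, adjusted p = 0.00707).

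TGF-beta ligands and receptors counted 8 genes, 3 of them at 5 or more. Of 6 tested, 3 were higher in crypt EC and 1 lower (23.2% and 20.0% of all tested genes). In villus EC 4 were higher and 0 lower (40.6% and 21.6% of all).

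Tgfb1, the ligand, stood at 2.73, 4.6, 3.6 and 2.9 in crypt EC and 5.55, 7.43, 11.3 and 7.13 in villus EC. In epi it stood at 0.0670, 0.526, 0.411 and 0.324 in the crypt and 0.445, 0.332, 0.461 and 0.512 in the villus. All EC libraries lay above all epi libraries (1.74 ± 0.19, adjusted p = 2.93e-06 in the crypt and 2.59 ± 0.19, adjusted p = 1.34e-08 in the villus). It rose from crypt to villus in EC (0.97 ± 0.19, adjusted p = 0.00147). The interaction of 0.85 ± 0.27 (adjusted p = 0.0209) missed the threshold with a pseudocount of 0.1 (0.68, adjusted p = 0.33).

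Tgfbr1, the type I receptor, stood at 18.1, 18.5, 17.7 and 17.6 in crypt EC and 26.8, 20.3, 21.9 and 26 in villus EC. In epi it stood at 10.9, 13.4, 12.3 and 10.8 in the crypt and 6.3, 5.06, 6.05 and 5.19 in the villus. EC was above epi without overlap (0.57 ± 0.13, adjusted p = 0.00222 in the crypt and 1.89 ± 0.13, adjusted p = 4.73e-09 in the villus), and the interaction was 1.33 ± 0.18 (adjusted p = 3.52e-05). Between crypt and villus it fell in epi (-0.95 ± 0.13, adjusted p = 1.44e-05). The rise in EC of 0.38 ± 0.13 (adjusted p = 0.0436) ended when 1 of 10 libraries was left out, any crypt EC library, crypt epi replicate 1, 3 or 4 or villus EC replicate 1, 3 or 4 (0.32 to 0.41, adjusted p of 0.0532 to 0.136). Tgfbr2, the type II receptor, was just under the threshold at means of 1.87 ± 0.40 in crypt EC and 4.81 ± 0.487 in crypt epi, then 1.29 ± 0.116 in villus EC and 1.19 ± 0.567 in villus epi and was lower in crypt EC (-1.02 ± 0.19, adjusted p = 0.000379). Tgfbr3 (betaglycan), also under 5 at means of 1.67 ± 0.753 in crypt EC and 0.396 ± 0.198 in crypt epi, then 4.4 ± 0.387 in villus EC and 0.55 ± 0.623 in villus epi, was higher in EC at both sites (0.91 ± 0.24, adjusted p = 0.00547 and 1.87 ± 0.24, adjusted p = 4.77e-06). Tgfbrap1, a protein associated with these receptors, had means of 6.5 ± 0.904 in crypt EC and 4.89 ± 1.34 in crypt epi, then 6.81 ± 1.09 in villus EC and 3.21 ± 1.19 in villus epi and was higher in villus EC (0.93 ± 0.22, adjusted p = 0.00159).

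The threshold of 5 separated close values. Just inside were Il18rap (5.85), Il34 (5.53) and Tnfrsf18 (5.53), and just outside were Tgfbr2 (4.81), Tnfrsf23 (4.74), Tnfsfm13 (4.53), Tgfbr3 (4.40), Tnfsf15 (4.19) and Il17f (4.16). Other genes under 5 that were called include Il4, a type 2 cytokine usually made by lymphocytes, which was higher in EC at both sites (1.22 ± 0.20, adjusted p = 0.000135 and 0.96 ± 0.20, adjusted p = 0.000639) at means of 2.56 ± 0.343 in crypt EC and 0.534 ± 0.251 in crypt epi, then 1.48 ± 0.342 in villus EC and 0.309 ± 0.42 in villus epi. Il3ra was also higher in EC at both sites (1.35 ± 0.22, adjusted p = 0.000114 and 1.28 ± 0.22, adjusted p = 9.76e-05), at means of 2.51 ± 0.838 in crypt EC and 0.36 ± 0.206 in crypt epi, then 2.55 ± 1.07 in villus EC and 0.429 ± 0.203 in villus epi. Il27 was listed at 0 in all 4 crypt epi libraries and in 3 of 4 villus epi libraries (2.33 in replicate 2), against 2.53 ± 0.339 in villus EC, with a villus difference of 1.38 ± 0.30 (adjusted p = 0.001). Its crypt difference, 0.80 ± 0.30 (adjusted p = 0.0445), ended when 1 of 11 libraries was left out, crypt EC replicate 2, 3 or 4, any crypt epi library or any villus EC library (0.73 to 0.82, adjusted p of 0.0529 to 0.108). Its rise from crypt to villus in EC, 1.01 ± 0.30 (adjusted p = 0.0217), ended when 1 of 3 was left out, crypt EC replicate 1 or 4 or villus EC replicate 3 (0.91 to 0.99, adjusted p of 0.0505 to 0.0698). Cxcl13, a B cell chemokine, had means of 0.0524 ± 0.0447 in crypt EC and 1.62 ± 0.377 in crypt epi, then 0.0219 ± 0.0253 in villus EC and 0.0406 ± 0.0511 in villus epi. Cxcl13 was at 1 or more in the 4 crypt epi libraries only and passed the filter through them. Its difference in the crypt (-1.30 ± 0.12) is therefore a description. Il5ra had means of 0.287 ± 0.0767 in crypt EC and 0.135 ± 0.0612 in crypt epi, then 0.452 ± 0.137 in villus EC and 1.43 ± 0.22 in villus epi. Il5ra passed the filter through villus epi only, so its rise from crypt to villus in epi (1.09 ± 0.11) is a description too. Tnfrsf23, a decoy receptor for TRAIL with close paralogs, was lower in villus EC (-1.08 ± 0.23, adjusted p = 0.000893) and rose from crypt to villus in epi (1.20 ± 0.23, adjusted p = 0.000411). Tested genes called in no contrast included Ccl5, Ifnar1, Il16, Il17f, Il17ra, Il17rb, Il1rn, Il4i1, Il4ra, Tnfrsf22 and Tnfsf12. Without villus epi replicate 2, Il16, Tnfrsf22 and Tnfsf12 were higher in crypt EC (0.44, adjusted p = 0.0293, 0.71, adjusted p = 0.00128 and 0.52, adjusted p = 0.0407). Tnfrsf22 was then also higher in villus EC (1.05, adjusted p = 4.94e-05) and rose from crypt to villus in EC (0.46, adjusted p = 0.0287), Il4i1 fell in EC (-0.55, adjusted p = 0.0292), and Ccl5 rose in epi (1.02, adjusted p = 0.0312). Ccl5 stood at 7.68 in villus epi replicate 1, against 1.27 and 2.02 in replicates 3 and 4 and 0.646 to 1.10 in crypt epi. It is also among the T cell markers summed above.

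Genes downstream of these receptors were followed in lists of other genes, which share no member with the 142. Of 30 tested interferon-stimulated and antigen presentation genes, 1 was higher in villus EC than in its epi and 24 lower (40.6% and 21.6% of all tested genes). Their median was -1.82 against 0.33 over all genes. In the crypt 3 were higher and 11 lower (23.2% and 20.0% of all tested genes, median -0.31 against 0.05). From crypt to villus in epi 18 rose and 4 fell (19.6% and 35.4% of all tested genes, median 1.21 against -0.19). H2-Aa and Cd74, of the MHC class II pathway, were lower in villus EC (-7.90, adjusted p = 7.62e-08 and -7.73, adjusted p = 8.16e-08). Isg15, an interferon-induced ubiquitin-like protein, was lower (-4.24, adjusted p = 3.41e-11) and rose from crypt to villus in epi (3.57, adjusted p = 3.57e-10). Ifit1 rose (4.17, adjusted p = 3.99e-10) in the same contrast, and Oasl2 went the other way in the crypt, where EC was higher (1.53, adjusted p = 1.13e-07).

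The counts of this paragraph stand against all tested genes, of which 23.2% were higher and 20.0% lower in crypt EC. In villus EC these shares were 40.6% and 21.6%. Of 23 JAK-STAT genes, 6 were higher in crypt EC and 1 lower, and 6 were higher and 8 lower in villus EC. Their median was 0.18 in the crypt and -0.02 in the villus, against 0.05 and 0.33 over all genes. Irf9 was lower in villus EC (-2.04, adjusted p = 8.85e-08), and Jak3 was higher in EC at both sites (1.38, adjusted p = 5.59e-06 and 1.69, adjusted p = 2.41e-07). Of 38 genes of MyD88, TRAF and NF-kappaB signalling, 4 were higher in crypt EC and 5 lower and 8 were higher and 13 lower in villus EC. From crypt to villus in epi 15 rose and 7 fell (19.6% and 35.4% of all tested genes). Relb was lower in EC at both sites (-0.98, adjusted p = 0.0138 and -2.28, adjusted p = 6.62e-06), and Tnfaip3, an inhibitor of NF-kappaB, was lower in the villus (-1.93, adjusted p = 6.81e-07). Nfkbiz, an inducible cofactor of NF-kappaB, was higher in crypt EC (1.07, adjusted p = 0.00318). Of 15 TGF-beta pathway genes, 2 were higher in crypt EC and 3 lower and 2 were higher and 5 lower in villus EC. Tgfbi, a matrix protein induced by TGF-beta, was lower in EC at both sites (-2.39, adjusted p = 5.93e-07 and -4.42, adjusted p = 2.41e-10), as was the integrin subunit Itgb6 (-1.47, adjusted p = 0.00192 and -2.19, adjusted p = 2.98e-05).

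Here too the counts stand against 23.2% higher and 20.0% lower of all tested genes in crypt EC, and 40.6% and 21.6% in villus EC. Of 14 tested IL-22 and IL-17 target genes, 3 were higher in crypt EC and 6 lower and 2 were higher and 9 lower in villus EC. The antimicrobial lectins Reg3b and Reg3g were lower in EC at both sites (-4.20, adjusted p = 3.98e-05 and -4.81, adjusted p = 7.99e-07 in the crypt, -6.27, adjusted p = 2.47e-07 and -6.01, adjusted p = 2.58e-08 in the villus). Saa3, an acute phase protein, was higher in crypt EC (3.48, adjusted p = 1.04e-07). Of 7 tested type 2 and tuft cell circuit genes, 1 was higher and 5 lower in EC at each site, led by Retnlb in the crypt (-5.76, adjusted p = 4.83e-07) and Ltc4s in the villus (-3.56, adjusted p = 9.09e-09). Of 24 tested cytokine and receptor genes outside the name rule, 7 were higher in crypt EC and 4 lower and 8 were higher and 7 lower in villus EC. Fas, the death receptor, was lower in EC at both sites (-2.53, adjusted p = 4.03e-08 and -5.38, adjusted p = 5.07e-12), and Flt3l, a dendritic cell growth factor, was higher at both (2.09, adjusted p = 1.16e-05 and 4.02, adjusted p = 3.28e-09).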

How the data were processed

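RNA of 16 libraries (4 groups of 4) was measured by sequencing of full-length cDNA amplified from 5000 sorted cells each. The authors deposited 1 table of gene-level FPKM values. Per the submitters' processing notes, bcl2fastq 2.20, kallisto, sleuth and build mm10 were used. Their roles, the annotation release and the scaling between libraries are not stated there. The values of a library sum to between 731415 and 1415123, not to 1 common total, and depth per library is unknown. No counting interval or detection limit is given.

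The genes were taken by symbol (84 rows have none). The deposited values received no further scaling and were taken as log2 of the value plus 1. Genes at 1 or more in at least 4 of 16 libraries (14089) went into limma 3.58.1 (R 4.3.3), with the variance modelled as a function of mean level, in 1 fit of 4 group means without a replicate block. All tests were two-sided, with Benjamini-Hochberg adjustment over all tested genes within each of 5 contrasts. Calls are genes with an adjusted p below 0.05. Plots used matplotlib 3.10.9 (Python 3.11.15). Promoter sequences are RefSeq's.

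The genes, lists and tests were chosen with earlier results of these data known. By the rule for naming, every gene with a group mean of 5 or more is named, but some results are not reported here. Library values are given for those called with a log2 fold change of at least 1 in size or called in the interaction. Genes under 5 are named where called, up to 10 per contrast, and 22 were named whatever their values. The text leaves out a few of the called genes under 5. Lists name up to 4 called genes per contrast, of which the text prints a part. Alternatives were other pseudocounts, filters and scalings, no trend, a fit of the compared groups alone, a block by replicate or library number, and leaving out each library.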

Additional observations from a re-analysis of the deposited data

Results flagged for a closer look

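In 25 of 212 gene and group combinations, taken over the 53 genes that reached 5, 1 library lay far from the other 3 of its group by Dixon's criterion, where chance gives about 1 in 20. Villus epi replicate 2 accounted for 8, of which 7 are given. It was high for Tnfrsf11a (31.7 against 14.5 to 16.9), Tnfrsf10b (20.3 against 4.26 to 6.53), Il1b (11 against 7.28 to 7.85), Il11ra1 (7.65 against 5.22 to 5.54) and Il18rap (15.6 against 1.84 to 3.16), and low for Ccl24 (42.3 against 70.9 to 75.7) and Ifnar1 (1.54 against 31 to 35.5) FPKM. The other 17 came from 9 further libraries. Crypt EC replicate 1 was highest for Tnfrsf11a (5.46 against 1.73 to 2.34), Ccl28 (43.3 against 19 to 21.7) and Il13ra1 (23.5 against 17.7 to 18.5). Crypt EC replicate 3 was highest for Tnfrsf18 (5.53 against 4.24 to 4.33). Crypt epi replicate 2 was highest for Il36g (4.37 against 3.61 to 3.66). Crypt epi replicate 3 was highest for Tnfrsf11b (0.899 against 0.205 to 0.299), Ccl28 (41 against 19.8 to 22.6) and Ifngr1 (176 against 141 to 146). Crypt epi replicate 3 was lowest for Ccl25 (639 against 708 to 717), Ccl9 (34.9 against 67.1 to 73.6) and Il18 (39.9 against 85.8 to 93.5). Villus EC replicate 1 was lowest for Cxcl16 (31.4 against 51.5 to 54.7). Villus EC replicate 2 was highest for Ccl6 (4.61 against 0.849 to 0.957). Villus EC replicate 3 was highest for Tnfsf10 (1.09 against 0.545 to 0.613). Villus EC replicate 3 was lowest for Il4ra (18.5 against 24.4 to 25.5). Villus EC replicate 4 was highest for Tnfrsf21 (20.1 against 10.7 to 11.9). Villus epi replicate 1 was highest for Il36g (3.71 against 2.63 to 2.76).

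The difference between EC and epi itself differed between villus and crypt, by the interaction term, for 33 of the 53 genes. It did for 39 of the 78 tested and for 42.9% of all tested genes. Values are log2 units, villus minus crypt. Those below 0 by at least 2 units were Ccl24 (-5.21), Il22ra1 (-3.99), Il33 (-3.74), Tnfsf13 (-3.24), Il15 (-2.83), Ccl25 (-2.80), Il17re (-2.75), Tnfsf13b (-2.75), Ifnlr1 (-2.37), Il34 (-2.20), Ifnar2 (-2.10) and Tnfsf10 (-2.05). The others below 0 were Tnfrsf11a (-1.69), Il18bp (-1.34), Ccl28 (-1.29), Ccl6 (-1.20), Tnfrsf10b (-1.15), Il1b (-1.15), Il15ra (-0.943), Il10rb (-0.822), Ifngr2 (-0.62) and Il13ra1 (-0.512). Those above 0 were Ifngr1 (0.548), Tgfb1 (0.85), Tnfrsf18 (1.16), Tgfbr1 (1.33), Tnfrsf19 (1.48), Ccl27a (1.49), Tnfrsf1b (1.68), Tnfrsf12a (2.49), Il1rap (2.52), Tnfsf9 (2.63) and Ccl9 (2.93).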

How the results depend on the processing

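Counts of the 78 tested genes called mostly stayed within 1.5 times. With a filter at 5 in 4 libraries, which left 49 of them, 12 were higher in crypt EC and 15 in villus EC, against 20 and 23. Rises from crypt to villus in EC went from 12 to 6 with a pseudocount of 0.1 and to 20 when the groups compared were fitted alone, a fit that gives no interaction. Falls in EC went from 11 to 18 with a common total and to 19 in that fit, and rises in epi from 25 to 15 with a common total. Leaving out 1 library gave 8 to 19 rises and 10 to 20 falls in EC, the upper ends without villus epi replicate 2, and 18 to 31 rises and 12 to 16 falls in epi. It gave 17 to 25 higher and 17 to 26 lower in crypt EC, 23 to 25 and 30 to 35 in villus EC, and 11 to 16 and 20 to 28 for the interaction. The calls gained without villus epi replicate 2 numbered 10, 6, 16, 11 and 7 over the 5 contrasts in the order of the text, and those lost 0, 1, 0, 2 and 1. Directions turned in 8 of the named results. They were Il10rb in the crypt (0.51) and Il6st in the villus (0.069) with a common total, Ccl6 in the interaction with a pseudocount of 5 (0.063), and 5 without villus epi replicate 2. These were EC against epi in the villus for Ifnar1 and Il17ra (-0.392 and -0.611 without it, with upper ends of 0.889 and 0.565 when another library is left out), and villus against crypt in epi for Ifnar1, Il17ra and Il17rc (0.472, 0.781 and 0.418 without it, with lower ends of -0.809, -0.395 and -0.700). The cause was not tested.

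Over 24 pairs of libraries with equal replicate numbers in the titles, the correlation of deviations ran from -0.268 to 0.170, with 4 above 0.1. Its median was -0.035, against 0.012 for different numbers. A correlation over all tested genes cannot decide whether libraries share a mouse or a batch. The marker Lyz2 split alike by replicate in EC at both sites. It stood at 22, 22.2, 1.84 and 2.39 in crypt EC and 20.7, 17.8, 2.22 and 2.13 in villus EC. The neutrophil markers S100a8 and S100a9 split by the same replicates in the other direction. S100a8 stood at 1.32, 1.16, 7.39 and 7.84 in crypt EC and 0.801, 1.20, 7.99 and 5.77 in villus EC. The reason was not tested. With a replicate block, crypt EC had 20 genes higher and 20 lower, villus EC 23 and 33, 10 rose and 10 fell in EC, 23 rose and 14 fell in epi, and 14 and 25 were called in the interaction. Of 350 named results, 6 were no longer called. The library numbers, used as a random block, had a consensus correlation of -0.0526, and 5 were no longer called. Depth is unknown, so the counting error of low values could not be computed and is not shown.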

Other observations

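A run of 4 cytokine receptor genes lies on chromosome 16 (mm10): Ifnar2 at chr16:91372783-91405589, Il10rb at chr16:91406164-91425834, Ifnar1 at chr16:91485238-91507441 and Ifngr2 at chr16:91547072-91565623. They encode receptor chains for type I interferon, the IL-10 family and interferon gamma. Their crypt differences between EC and epi were 1.64, -0.03, -0.13 and -1.30 log2 units in that order, of which the first and the last were called. From crypt to villus in epi the differences were 2.47, 1.22, -0.47 and 1.40, and Ifnar2, Il10rb and Ifngr2 rose. The value of Ifnar1 was 0.47 (adjusted p = 0.000296) without villus epi replicate 2.

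The antagonist side of some pairs was also measured in EC. Tnfrsf11b was at 87.1 ± 9.46 FPKM in crypt EC and 146 ± 14.9 in villus EC, where Tnfrsf11a was at 2.96 ± 1.69 and 1.09 ± 0.282. In epi the levels were 0.412 ± 0.326 and 0.698 ± 0.23 for Tnfrsf11b, and 10.1 ± 2.88 and 19.5 ± 8.15 for Tnfrsf11a. Il18bp was at 7.24 ± 0.827 in crypt EC and 5.63 ± 0.75 in villus EC, where Il18 was at 5.45 ± 0.785 and 6.83 ± 2.57. Unlike Tnfrsf11b, Il18bp had its highest mean, 8.34, in villus epi, and its villus difference between EC and epi was not called. These are levels per length of RNA (mean ± SD, n = 4), and protein was not measured.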
